A study of Mus musculus with 8 samples.

Results

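Tbx1 and 8 genes around it on proximal mouse chromosome 16 were examined in hippocampal RNA of Ts1Cje and wild-type mice. In the order of the reference annotation the 9 genes are Zdhhc8, Ranbp1, Dgcr8, Arvcf, Txnrd2, Gnb1l, Tbx1, Gp1bb and Hira. They were taken as the non-control probes whose RefSeq accession maps to one of these symbols, which gave 12 of the 55681 probes and 9 of the 20656 named genes on the array. Tbx1 itself was chosen by its lower signal in Ts1Cje in these same arrays, so its difference is given as a description without a p-value. The other 8 were listed for their position, and the question was whether they stand lower as Tbx1 does.

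The tested mice were Ts1Cje, a mouse model of Down syndrome in which the end of chromosome 16, starting at Sod1, is present additionally on a translocation chromosome that lacks the tip of chromosome 12, the additional Sod1 being disrupted. Their controls were disomic wild-type littermates. All were 3-month-old C57BL6/J mice per the labels, with 4 arrays of each genotype and hippocampus as the tissue. The design text speaks of 4 pairs of littermates, and sex is not given in the labels used here. P-values measure the spread between these arrays, taken as separate mice. The 9 genes lie before Sod1, with 269 tested named genes of chromosome 16 between Tbx1 and Sod1, outside the segment present in excess. The arrays measured RNA only, and DNA copy number was not measured.

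This stretch of chromosome 16 is the mouse counterpart of the human 22q11 region whose deletion causes DiGeorge or velocardiofacial syndrome. Tbx1 encodes a T-box transcription factor that patterns the pharyngeal arches and the cardiac outflow tract of the embryo, and loss of a single copy accounts for much of the heart phenotype of the deletion. Its neighbours act in unrelated processes. Dgcr8 is the RNA-binding partner of Drosha in microRNA processing, Hira is a histone chaperone for variant H3.3, and Ranbp1 binds Ran and takes part in transport through the nuclear pore. Txnrd2 is the mitochondrial thioredoxin reductase, Zdhhc8 a palmitoyltransferase, Arvcf a catenin of the p120 family at cadherin junctions, Gnb1l a WD40-repeat protein, and Gp1bb the beta chain of the platelet glycoprotein Ib receptor for von Willebrand factor.

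The start regions show how differently these genes are packed, and 4 are printed to set Tbx1 beside 2 neighbours that share theirs. They are from RefSeq (build GRCm38.p6) and run from 250 bases before to 50 bases after an annotated start, 5′ to 3′ on the gene's own strand. Capitals mark bases that also lie in the start window of another gene on the opposite strand. Neither annotated window of Tbx1 overlaps that of another gene, hence no capitals.
Tbx1, chr16:18588850-18589149, minus strand: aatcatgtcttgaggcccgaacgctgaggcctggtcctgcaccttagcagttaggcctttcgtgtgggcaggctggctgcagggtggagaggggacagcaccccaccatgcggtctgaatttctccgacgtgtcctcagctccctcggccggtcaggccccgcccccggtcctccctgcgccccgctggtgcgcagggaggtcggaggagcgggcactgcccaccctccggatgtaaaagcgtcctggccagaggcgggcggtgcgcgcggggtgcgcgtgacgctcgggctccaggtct
Tbx1, chr16:18590622-18590921, minus strand: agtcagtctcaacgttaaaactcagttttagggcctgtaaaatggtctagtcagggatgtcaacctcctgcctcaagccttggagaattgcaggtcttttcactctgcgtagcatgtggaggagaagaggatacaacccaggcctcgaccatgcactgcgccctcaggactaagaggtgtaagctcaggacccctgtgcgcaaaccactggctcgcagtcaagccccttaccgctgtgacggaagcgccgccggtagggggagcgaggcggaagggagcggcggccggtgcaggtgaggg
Ranbp1, chr16:18248645-18248944, minus strand: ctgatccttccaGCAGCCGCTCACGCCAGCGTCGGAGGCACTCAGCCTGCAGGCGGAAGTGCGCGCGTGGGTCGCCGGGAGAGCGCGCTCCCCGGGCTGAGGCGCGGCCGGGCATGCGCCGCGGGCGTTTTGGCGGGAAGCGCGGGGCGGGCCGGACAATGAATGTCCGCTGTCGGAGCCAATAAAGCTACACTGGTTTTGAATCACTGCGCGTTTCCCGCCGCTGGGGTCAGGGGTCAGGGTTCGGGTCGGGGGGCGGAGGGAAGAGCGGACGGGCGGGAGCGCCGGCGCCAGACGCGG
Hira, chr16:18876500-18876799, plus strand: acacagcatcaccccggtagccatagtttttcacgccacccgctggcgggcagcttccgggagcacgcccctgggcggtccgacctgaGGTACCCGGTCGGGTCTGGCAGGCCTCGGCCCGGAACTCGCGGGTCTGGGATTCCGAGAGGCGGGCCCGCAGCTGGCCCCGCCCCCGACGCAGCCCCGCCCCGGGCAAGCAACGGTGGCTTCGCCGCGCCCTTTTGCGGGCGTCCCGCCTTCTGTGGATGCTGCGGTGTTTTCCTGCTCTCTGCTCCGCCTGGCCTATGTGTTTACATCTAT

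The window of Ranbp1 shared 288 of its 300 bases with that of Trmt2a, and the window of Hira shared 212 with that of Mrpl40. One window of Arvcf shared 183 bases with that of Tango2. The windows of Tbx1 held 26 and 16 CG dinucleotides, those of Ranbp1 and Hira 42 and 31, and the median of the 32851 windows in the table was 7. The T-box half-site AGGTGTGA was in none of the 12 windows of the 9 genes on either strand, and in 1.27% of all windows. Its core GGTGTG, which lies within the half-site, was in the window of Gnb1l and in 1 of the 3 windows of Arvcf, and in 19.0% of all windows. The array's probe for each gene reads its RNA, and where the probe lies relative to these windows was not known.

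Tbx1 signal was 0.49-fold in Ts1Cje hippocampus. The background-corrected intensity of its probe was 188, 173, 168 and 195 in the 4 Ts1Cje arrays, against 393, 441, 310 and 323 in the 4 wild-type arrays, before any scaling between arrays. Every Ts1Cje array was below every wild-type array. On the log2 scale relative to the 75th percentile of each array, the mean of Tbx1 was -1.69 ± 0.14 over the Ts1Cje arrays and -0.67 ± 0.29 over the wild-type arrays (SD, n = 4 each), a difference of -1.02 (SE 0.14). The wild-type SD was above the median SD of 0.12 over all features, with wild-type replicate 3 at -1.04 and wild-type replicate 2 at -0.38.

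A single probe with a single spot stood for Tbx1, so that no second probe could be set beside it. It was well above background on all 8 arrays. The brightness of the spot itself, uncorrected, was 230 to 267.5 in Ts1Cje and 393 to 536.5 in wild-type arrays, while the local background around it was 28 to 33 in Ts1Cje and 31 to 34 in wild-type arrays. The 69 tested probes within 5 rows and columns of this spot had log2 fold changes of -0.52 to 0.23 and a median of -0.03. Within the row of the slide that held replicates 1 and 2 of both genotypes the Tbx1 difference was -1.21, and within the row of replicates 3 and 4 it was -0.82. Slide column and genotype cannot be told apart, since the columns of Ts1Cje and wild-type arrays alternated. In bulk tissue, fewer cells that express Tbx1 and less Tbx1 RNA per cell cannot be told apart either.

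**Figure D1:**
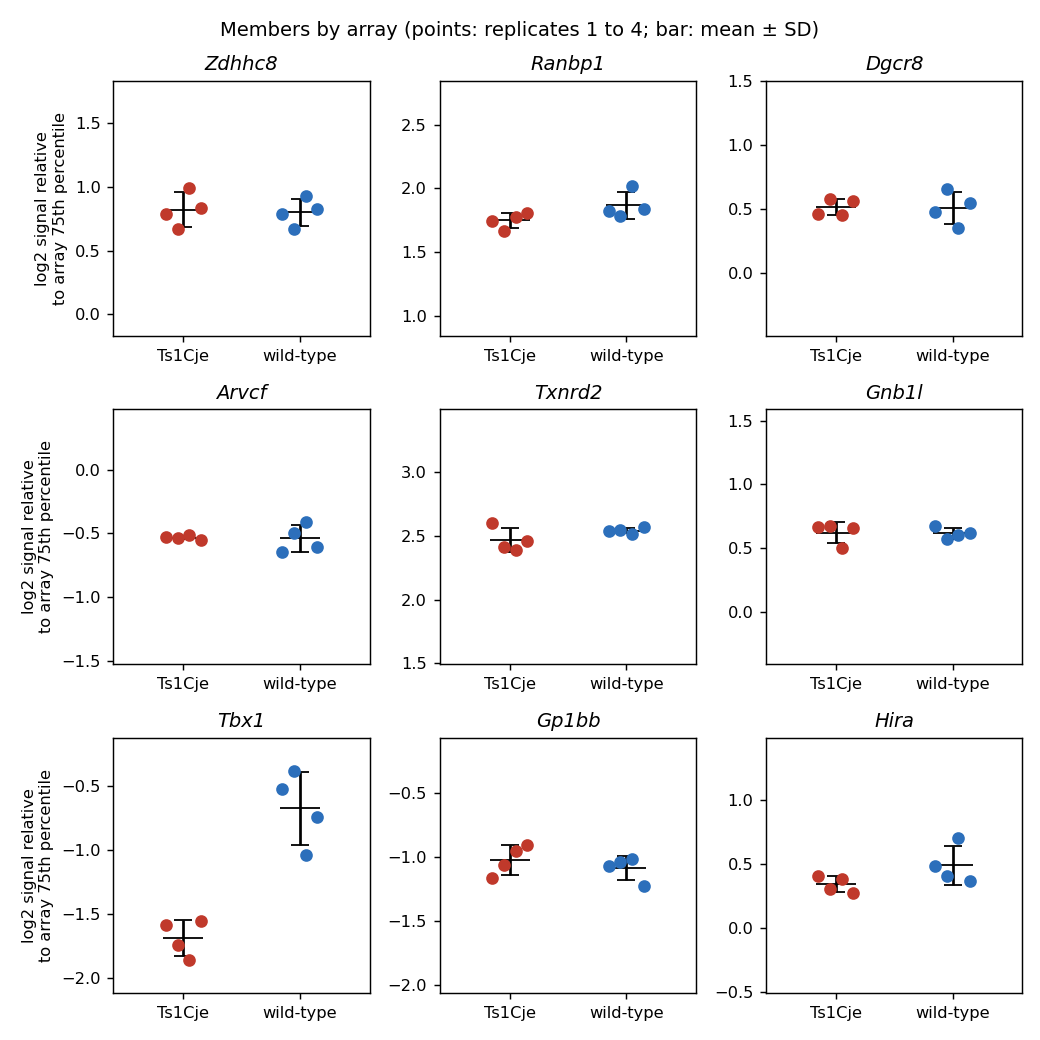
Log2 signal of the 9 genes relative to the 75th percentile of each array (y axis, the same span in every panel) in Ts1Cje (left, red) and wild-type (right, blue) hippocampus, with 1 point per array and the mean ± SD as bars. The Tbx1 points of the genotypes are apart, at -1.69 ± 0.14 and -0.67 ± 0.29, and those of the other 8 genes overlap.

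None of the 8 neighbours stood lower as Tbx1 did. Their log2 fold changes ran from -0.15 to 0.06 with a median of 0.01, where the median of all 24025 tested features was -0.01. 5 of the 8 were above 0 and 3 below, and 52.7% of all features were below 0. None of the 8 passed an adjusted p of 0.05 (limma, Benjamini-Hochberg over all features; adjusted p 0.64 to 0.98) and none had an unadjusted p under 0.05, against 0.196% of features with an adjusted p and 8.73% with an unadjusted p under that value. The genotypes overlapped in all 8, whereas they did not overlap for 6.12% of all features (Ts1Cje lower for 3.7%, higher for 2.42%). The 95% intervals of all 8 held 0 and lay above the Tbx1 difference of -1.02, for which Tbx1 was chosen. The lowest bound among them was 0.79-fold and the highest 1.18-fold, for the brightest probe of each gene; the dimmer probes of Gp1bb had wider intervals.

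Of the genes of RNA processing and chromatin, Dgcr8 was nearly level and Hira had the lowest value of the neighbours. Dgcr8 intensity was 775, 870, 835 and 849 in Ts1Cje, against 787, 904, 814 and 787 in wild-type arrays, with a log2 fold change of 0.01 (SE 0.07, interval -0.16 to 0.17). After scaling, the Ts1Cje arrays lay inside the range of the wild-type arrays. Hira intensity was 746, 720, 795 and 694 in Ts1Cje, against 789, 759, 1042 and 696 in wild-type arrays, with a log2 fold change of -0.15 (SE 0.08, interval -0.33 to 0.04, limma adjusted p = 0.64). Wild-type replicate 3 was the highest, and without it the Hira difference was -0.08.

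Ranbp1, the transport factor, resembled Hira. Its intensity was 1889, 1844, 2087 and 2010 in Ts1Cje, against 2002, 1976, 2589 and 1924 in wild-type arrays. The log2 fold change was -0.12 (SE 0.06, interval -0.27 to 0.03, limma adjusted p = 0.64), and -0.07 without wild-type replicate 3, again the highest array. Trmt2a, a tRNA methyltransferase gene that shares the start window of Ranbp1, stood at -0.01 (SE 0.06). Mrpl40, a mitochondrial ribosomal protein gene that shares the window of Hira, stood at 0.09 (SE 0.06).

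The enzymes Txnrd2 and Zdhhc8 also overlapped between genotypes. Txnrd2 intensity was 3410, 3095, 3185 and 3169 in Ts1Cje, against 3280, 3343, 3659 and 3201 in wild-type arrays, with a log2 fold change of -0.08 (SE 0.06, interval -0.21 to 0.05). Its wild-type arrays lay close together after scaling (SD 0.02), and Ts1Cje replicate 1 lay above all of them. Without that array the Txnrd2 difference was -0.12. Zdhhc8 intensity was 974, 926, 1215 and 1028 in Ts1Cje, against 978, 911, 1213 and 955 in wild-type arrays, with a log2 fold change of 0.02 (SE 0.08, interval -0.17 to 0.21). Replicate 3 was the brightest in each genotype.

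Arvcf, the junction protein, had intensities of 390, 402, 426 and 392.3 in Ts1Cje, against 361, 406, 480 and 354 in wild-type arrays. Its log2 fold change was 0.01 (SE 0.06, interval -0.13 to 0.15), and the Ts1Cje arrays lay inside the range of the wild-type arrays. Tango2, with which Arvcf shares a start window, stood at 0.07 (SE 0.05).

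Gnb1l and Gp1bb are the nearest tested genes on either side of Tbx1. Gnb1l intensity was 892, 926, 861 and 905 in Ts1Cje, against 901, 854, 967 and 828 in wild-type arrays, a log2 fold change of 0.01 (SE 0.05, interval -0.12 to 0.13). Its second probe, designed on another RefSeq transcript of the gene, gave 254, 256, 292 and 295 in Ts1Cje, against 266, 289, 354 and 302 in wild-type arrays. That probe had a log2 fold change of -0.15 (SE 0.08, limma adjusted p = 0.64 with every probe as its own feature), and its groups overlapped.

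Gp1bb had 3 probes, and none gave a lower value in Ts1Cje. The brightest gave intensities of 252, 278, 314 and 307 in Ts1Cje, against 270, 280, 316 and 231 in wild-type arrays, with a log2 fold change of 0.06 (SE 0.07, interval -0.11 to 0.23), and 0.02 to 0.11 without 1 array. The second gave 0.06 (SE 0.17, interval -0.33 to 0.46). The third, designed on another RefSeq transcript, was the dimmest, with intensities of 60.3, 60.4, 71.0 and 76.0 in Ts1Cje, against 52.4, 46.1, 81.6 and 42.9 in wild-type arrays. It stood at 0.29 (SE 0.16, interval -0.07 to 0.66, limma adjusted p = 0.65 with every probe as its own feature) and its groups overlapped. Of 6 platelet and megakaryocyte markers, Ppbp, Itga2b and Gp1ba were too dim to be tested. Those tested were Pf4 (-0.03, SE 0.17), Gp9 (-0.81, SE 0.40, well above background on 3 of 4 Ts1Cje arrays) and Gp5 (0.15, SE 0.08). None was called, against 0.196% of all features. Septin5, a septin gene and the next tested one after Gp1bb, stood at -0.04 (SE 0.06).

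Moving outward from Tbx1 by gene order gave the same picture. The 20 tested named genes before Tbx1 had log2 fold changes of -0.12 to 0.16 with a median of 0.01, and the 20 after it -0.21 to 0.61 with a median of 0.01. None of these 40 passed the threshold, against 0.196% of all features, and 2 had an unadjusted p under 0.05, against 8.73%. The genotypes did not overlap for 1 of the 40, against 6.12% of all features. That gene was Klhl24, a Kelch-like ubiquitin ligase adaptor, at -0.21 (SE 0.06, limma adjusted p = 0.34). The other low values, after Klhl24, were Klhl6 (-0.19), Hira and Ranbp1. At the high end stood B3gnt5 (0.61, SE 0.29), well above background on 2 of 4 wild-type arrays only, A930003A15Rik (0.34, SE 0.13), Tssk1 (0.16, SE 0.08) and the endothelial tight junction gene Cldn5 (0.15, SE 0.14).

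**Figure D2:**
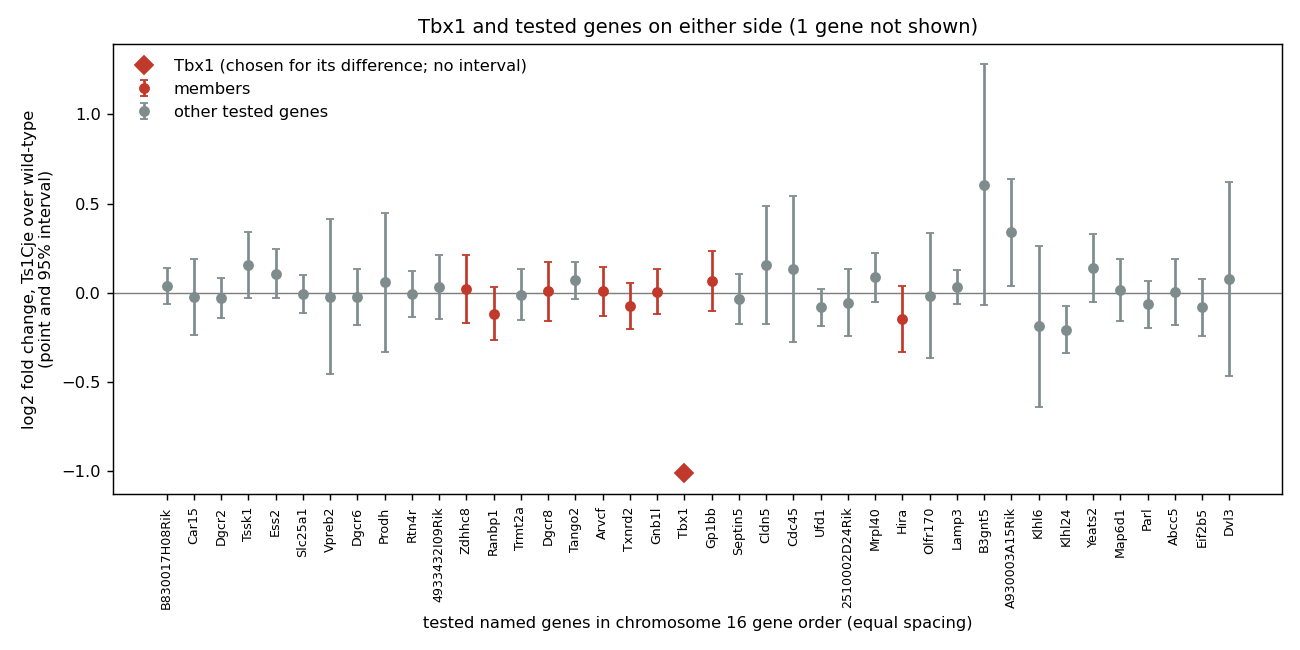
Log2 fold change of Ts1Cje over wild-type (y axis) for Tbx1 and the 20 tested named genes on either side of it in chromosome 16 gene order (x axis, equal spacing), members in red and other genes in grey, with 95% intervals for all but Tbx1; 1 of these genes is not shown. Tbx1 at -1.02 lies apart from the other genes, which run from -0.21 to 0.61.

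A wider list of 29 other genes of the region, not restricted to the nearest, also centred on 0. Of its 27 tested members 11 were above and 16 below 0, and the median was -0.01. None was called, against 0.196% of all features. An unadjusted p under 0.05 was found for 1, Thap7, lower in Ts1Cje, against 8.73% of all features. The genotypes overlapped for all 27, whereas they did not for 6.12% of all features. The lowest were P2rx6, a purinergic receptor subunit (-0.50, SE 0.23, well above background on 3 of 4 Ts1Cje arrays), Serpind1, which encodes heparin cofactor II (-0.29, SE 0.32), Thap7 (-0.17, SE 0.07) and Crkl, an adaptor protein gene that interacts genetically with Tbx1 (-0.11, SE 0.09). The highest, besides Tssk1 and Cldn5, were the replication factor Cdc45 (0.13, SE 0.18) and Ess2 (0.11, SE 0.06). Their limma adjusted p ran from 0.56 to 0.84. Tssk2 and Gsc2 were not tested for lack of signal above background.

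Whether neighbours vary with Tbx1 from array to array was read from deviations from each gene's own genotype mean, which leave out the contrast that chose Tbx1. Over the 8 arrays Pearson's r with Tbx1 was above 0 for 3 of the 8 neighbours and below 0 for 5. It was highest for Dgcr8 (0.73), followed by Txnrd2 (0.39) and Gnb1l (0.33), and lowest for Hira (-0.67), Zdhhc8 and Ranbp1 (-0.66 each). Arvcf gave -0.50 and Gp1bb -0.05. In wild-type replicate 3, Tbx1 and Dgcr8 deviated from their wild-type means by -0.37 and -0.16, and Hira and Ranbp1 by 0.22 and 0.15. That array also had the highest 75th percentile of the 8 arrays (log2 9.32, the others 9.08 to 9.25), and its part in these correlations was not tested. The 8 arrays share the slide and the scaling, and 17.0% of the 14735 named genes compared had an r with Tbx1 larger than 0.7 in size.

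**Figure D3:**
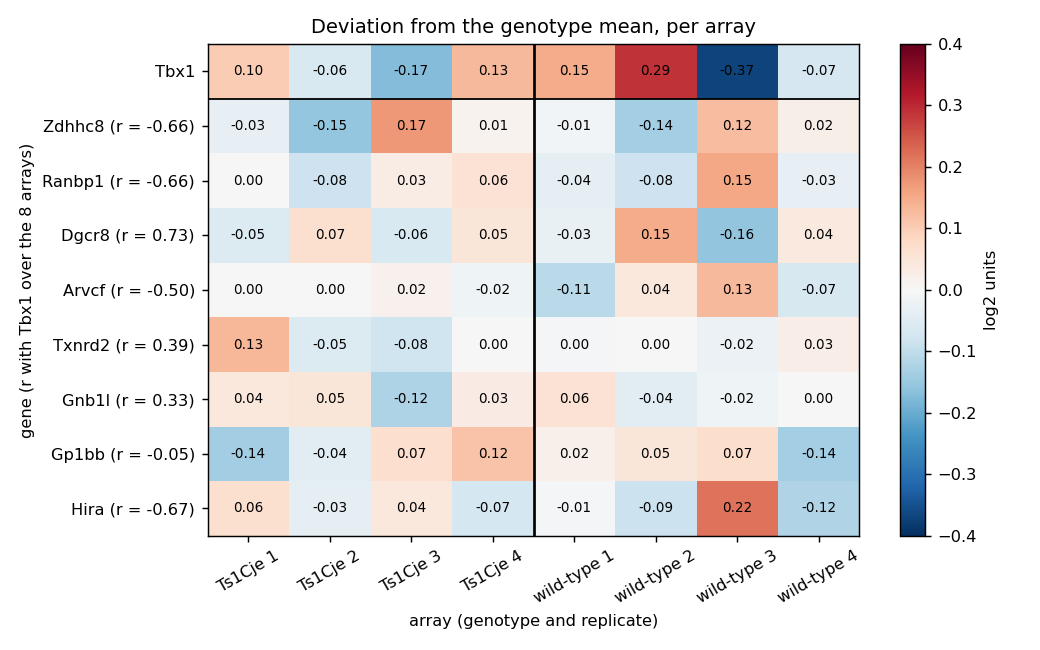
Deviation of each gene (rows) from its own genotype mean on each array (columns, Ts1Cje left of the line and wild-type right of it), in log2 units, with Pearson's r with Tbx1 over the 8 arrays beside each name. Wild-type replicate 3 shows -0.37 for Tbx1 and 0.22 for Hira, and r ranges from -0.67 to 0.73.

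The 5 genes closest to Tbx1 by the same measure lay on other chromosomes. They were Gnpat, an enzyme of plasmalogen synthesis, on chromosome 8 (r = 0.99), the guanylate-binding protein gene Gbp10 on chromosome 5 (0.98), Rfc1, the large subunit of replication factor C, on chromosome 5 (0.98), Cmtm2b on chromosome 8 (0.98) and Dntt, the terminal deoxynucleotidyl transferase, on chromosome 19 (0.98). Their log2 fold changes between genotypes were 0.02 to 0.07, so none showed the genotype difference of Tbx1. None was called, against 0.196% of all features. With 14735 genes ranked over 8 arrays, values of this size are given as a description.

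None of the tested genes known to act with or downstream of Tbx1 passed the threshold, against 0.196% of all features. Of 28 listed, 27 were on the array and 18 were tested. Of these, 4 were above and 14 below 0, where 52.7% of all features were below 0. The median was -0.04 against -0.01 for all features. The lowest were the Notch ligand gene Dll4 (-0.24, SE 0.17) and Cyp26b1, a retinoic acid hydroxylase (-0.22, SE 0.14). The highest were the forkhead gene Foxc2 (0.39, SE 0.64) and Aldh1a2, a retinoic acid synthesis enzyme (0.26, SE 0.42). Foxc2 was well above background on 3 of 4 wild-type arrays. For both genes wild-type replicate 2 was the lowest wild-type array (Foxc2 at -5.13 and Aldh1a2 at -1.07). Without that array the sign turned for both, to -0.25 for Foxc2 and -0.16 for Aldh1a2. On the same array the mean of 6 fibroblast and meningeal markers was 1.63, the lowest of the 8 arrays, and its part in these values was not tested. Fgf8, Fgf10, Foxc1 and Mef2c stood between -0.10 and -0.02. Members not tested for lack of signal above background included Flt4, Isl1, Nkx2-5, Shh, Gbx2, Foxa2 and Cyp26c1.

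Among T-box paralogs, 9 of 16 were tested and none was called, against 0.196% of all features. Their median log2 fold change was 0.05, with 5 above and 4 below 0, where 52.7% of all features were below 0. Eomes, expressed in intermediate progenitors of the dentate gyrus, was the lowest at -0.41 (SE 0.20, limma adjusted p = 0.60) and was well above background on 3 of 4 Ts1Cje arrays. Tbx10 followed at -0.08 (SE 0.09), and Tbx6 (0.20, SE 0.21) and Tbx22 (0.14, SE 0.21) were the highest. Tbr1, a marker of cortical and hippocampal excitatory neurons, stood at -0.07 (SE 0.09).

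The hippocampal excitatory neuron markers Prox1, Neurod6, Camk2a, Slc17a7 and Grin1 were well above background on all 8 arrays. On each array 59.9% to 63.1% of probes were well above background, so detection of these markers cannot identify the tissue. Of these 5 markers, 4 were below 0 (median -0.10) and none had an unadjusted p under 0.05. Marker groups of other cells in the dissected tissue were set beside Tbx1. None of their genes passed the threshold, against 0.196% of all features. Over all features, 52.7% were below 0 and 8.73% had an unadjusted p under 0.05. The genotypes did not overlap, with Ts1Cje lower, for 3.7%. These shares stand beside all marker counts that follow. All 6 ependymal markers were below 0 (median -0.32) and 3 had an unadjusted p under 0.05. Their array means were -0.09 to 0.24 in Ts1Cje and 0.21 to 0.53 in wild-type. Tmem212 was at -0.73 (SE 0.15, limma adjusted p = 0.18), with every Ts1Cje array below every wild-type array. Ccdc153 was at -0.51 (SE 0.14) and Dynlrb2 at -0.41 (SE 0.13), with overlapping groups. Of 6 choroid plexus markers 5 were below 0, and 2 had an unadjusted p under 0.05. These were Otx2 at -0.77 (SE 0.29) and Clic6, a gene of the triplicated segment, at 0.74 (SE 0.24). Clic6 was the 1 marker above 0. Array means of all 6, Clic6 included, were -1.94 to -1.60 in Ts1Cje and -2.14 to -1.30 in wild-type.

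Of 6 fibroblast and meningeal markers 5 were above 0 (median 0.12), none had an unadjusted p under 0.05, and array means were 2.30 to 2.46 in Ts1Cje and 1.63 to 2.80 in wild-type. All 6 mural cell markers were below 0 (median -0.07), 1 with an unadjusted p under 0.05, with array means of -0.14 to 0.24 in Ts1Cje and 0.03 to 0.26 in wild-type. Of 8 endothelial markers 3 were above and 5 below 0 (median -0.01), 1 with an unadjusted p under 0.05, with array means of 0.62 to 0.77 in Ts1Cje and 0.64 to 0.71 in wild-type. All 4 tested blood markers were above 0 (median 0.33), none with an unadjusted p under 0.05, with array means of -1.90 to -0.18 in Ts1Cje and -1.79 to -0.22 in wild-type. All 3 interneuron markers were above 0 (median 0.09), none with an unadjusted p under 0.05. Of 4 oligodendrocyte markers 2 were above and 2 below 0 (median -0.06), 1 with an unadjusted p under 0.05. Of 4 astrocyte markers 3 were below 0 (median -0.06), none with an unadjusted p under 0.05. Of 4 microglia markers 3 were below 0 (median -0.08), 1 with an unadjusted p under 0.05. The part of these groups in the Tbx1 difference was not tested.

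**Figure D4:**
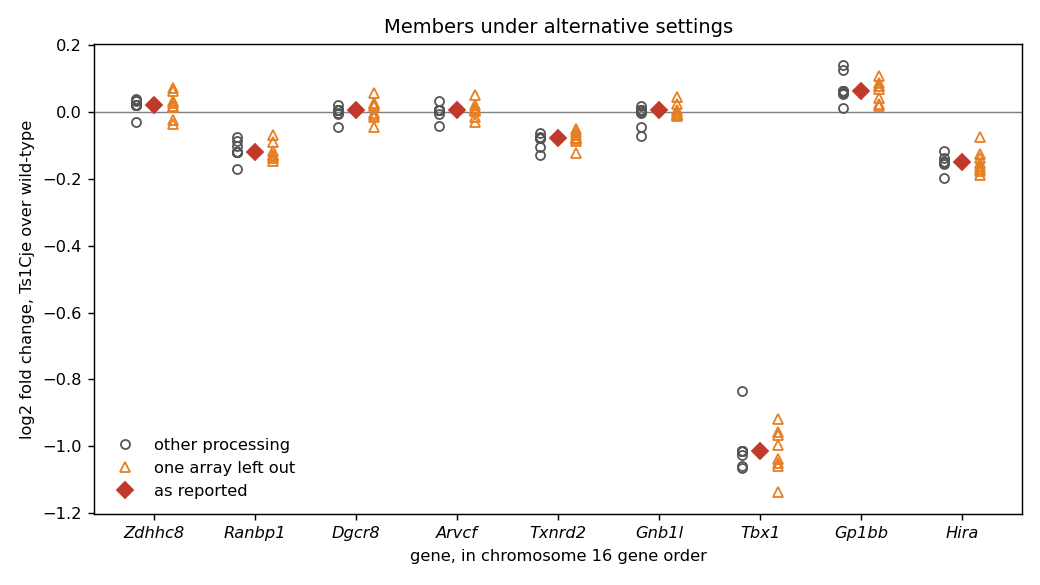
Log2 fold change of Ts1Cje over wild-type (y axis) for the 9 genes in gene order (x axis) as reported (diamonds), with other processing (circles) and with 1 array left out (triangles). Tbx1 runs from -1.14 to -0.83 and the 8 neighbours from -0.20 to 0.14; 7 of the 19 settings leave the value of a gene with 1 probe as it is by construction.

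Across the whole array, 42 features were higher and 5 lower in Ts1Cje (0.175% and 0.0208% of 24025), and with quantile normalization 47 were higher and 13 lower. With replicate number as a block 1 was higher and 0 lower, though no label says that equal numbers mark a pair. Dyrk1a, a kinase gene of the triplicated segment used to check the labels, was 1.56-fold higher (log2 0.42 ± 0.05 in Ts1Cje and -0.22 ± 0.08 in wild-type, SD, n = 4 each; limma adjusted p = 0.0078). The share of probes well above background was 59.9% to 63.1%. With 4 arrays a genotype, their number limits the precision.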

How the data were processed

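Hippocampal total RNA (0.1 µg, Cy3) was hybridised to one-colour arrays, per the labels' protocols. The deposited values are linear intensity values of spots, background-corrected by Agilent Feature Extraction 10.10.1.1 per the file headers and not normalized between arrays. Probes were designed on mm9 per the file headers. All 8 arrays were on 1 slide. Control and outlier spots were left out, no spot was saturated, log2 processed signals were averaged per probe, and each array's 75th percentile was subtracted. The filter kept 32596 probes, those that Feature Extraction marked well above background in every array of a genotype. RefSeq accessions were named through a table of assembly GRCm38.p6, used for names and gene order, and each gene was represented by its brightest kept probe.

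The test was limma's moderated test (version 3.58.1, R 4.3.3) of genotype without a block, with Benjamini-Hochberg adjustment over 24025 features. On simulated data, the fit over 24025 features recovered 61% of 1.5-fold and 89% of 2-fold changes, with 15 false calls among 165. The simulated noise was independent between features, whereas the real arrays share the slide and the scaling, so these rates need not hold for them. Named genes were all 9 members, called genes and otherwise the lowest and highest 4 (region and gene order) or 2 (pathway and T-box) of each list, nearest genes of members, the 5 genes most like Tbx1, and Dyrk1a. Fgf8, Fgf10, Foxc1, Mef2c, Tbr1 and the cell type markers were named outside this rule after their values were seen. Members and lists were chosen with earlier results of these data known. Plots used matplotlib 3.10.9. Some genes of the lists are counted but not reported by name here.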

Additional observations from a re-analysis of the deposited data

Results flagged for a closer look

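In groups of 4 arrays, 1 array stood far from the other 3 (gap over range above Dixon's 95% critical value) in 3 of 80 groups examined over the named genes, where 4 are expected by chance. Gnb1l was 0.50 in Ts1Cje replicate 3, against 0.65 to 0.67 in the other Ts1Cje arrays. Aldh1a2 was 0.60 in Ts1Cje replicate 4, against 0.43 to 0.44 in the other Ts1Cje arrays. Mrpl40, which shares its start window with Hira, was 2.34 in wild-type replicate 3, against 2.50 to 2.54 in the other wild-type arrays. All are log2 values relative to the array's 75th percentile.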

How the results depend on the processing

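The Tbx1 difference, by which the gene was chosen, ran from -1.14 without wild-type replicate 3 to -0.83 with normexp over the 12 alternatives that can move it, the other 7 changing only its error or the set of features. None of the 8 neighbours was called in any of the 19 (limma adjusted p 0.41 to 1.00). Hira, Ranbp1, Txnrd2 and Gp1bb kept their sign. Of the 98 neighbour values that an alternative moved, 22 changed sign, none larger than 0.07 in size. With the array median as centre Zdhhc8 was -0.0291, Dgcr8 -0.0430, Arvcf -0.0426 and Gnb1l -0.0448, with normexp Dgcr8 was -0.0020, Arvcf -0.0063 and Gnb1l -0.0017, with array weights Dgcr8 was -0.0060, and with the mean over probes Gnb1l was -0.0712. Without 1 array at a time Zdhhc8 ran from -0.0363 to 0.0724, Dgcr8 from -0.0451 to 0.0568, Arvcf from -0.0278 to 0.0512 and Gnb1l from -0.0107 to 0.0463. Without wild-type replicate 2, tried after seeing the data, Foxc2 was -0.25 and Aldh1a2 -0.16. With the array median as centre, the median of the region list was -0.0605 and that of the 40 genes around Tbx1 -0.0444. Either centre subtracts a single value per array, so changing it moves every log2 fold change by the same amount. The median of all features was -0.0575 with the array median as centre, against -0.0072 as reported. The median of the T-box list ran from -0.0346 to 0.0637 without 1 array. The cause of the changes under the other settings was not tested.

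The count of 47 called features was 25 with the array median as centre, 23 with no filter on dim probes, 84 with array weights, 71 with a trended and robust variance prior, 98 at an adjusted p under 0.10, and 13 to 44 without 1 array. With the replicate block it was 1. Equal numbers share only a number in the labels: deviations of same-numbered arrays correlated at 0.05 to 0.24, and 6 of 8 arrays correlated best with their own number. Slide row as a block, added after seeing the data, gave 45 calls. Feature Extraction's mean signal was not used, so normexp ran on median signals. For every gene but Gnb1l and Gp1bb, the value rests on a single probe.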
